A study of Mus musculus with 6 samples.

Results

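Complement is a system of plasma and tissue proteins that tags and removes microbes, debris and dying cells. Its RNA was examined here in mouse hearts through 9 genes: the components C1qa, C1qb, C1qc, C4b, C3, Cfb and Cfd, the regulator Serping1 and the receptor C3ar1. They were taken by symbol from a table of 18019 genes, and all 9 were found and passed the expression filter (mean of all 6 libraries 1 FPKM or more). FPKM counts sequenced fragments relative to gene length and library size.

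The 3 VNS-TAC libraries came from hearts of wild-type mice that had received rAAV-ChAT-hChR2[H134R]-GFP in the dorsal vagal motor nucleus (DVMN), a virus that gives neurones with an active choline acetyltransferase promoter a light-activated channel, used to activate vagal preganglionic neurones there. The labels write VNS without spelling it out, and the names of the VNS-TAC libraries carry 10 Hz, with no stimulation schedule given. The 3 Ctrl-TAC libraries came from hearts of wild-type mice given rAAV-ChAT-GFP, which lacks the channel. Both groups had undergone TAC, transverse aortic constriction, which overloads the left ventricle, and hearts were collected 8 weeks later. No group without TAC was analysed here, and the age and sex of the mice are not given in the labels. The comparison asks what driving these neurones does to cardiac RNA under pressure overload.

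The libraries held roughly 13640000 to 15760000 fragments, estimated from the steps of the low values. This estimate is loose, because the fit to whole-fragment steps scored 0.203 to 0.272, where 1 is a perfect fit. The Ctrl-TAC libraries correlated with each other across genes at 0.988 to 0.992, and the VNS-TAC libraries at 0.941 to 0.979. On principal component 1, VNS-TAC 3 scored 46.4 and the other libraries -16.6 to 4.64. On component 2, VNS-TAC 1 scored 36.5 and the others -18.3 to 4.54. The deviation of genes from their mean followed GC content in VNS-TAC 1 at a Spearman correlation of 0.549 across genes, against -0.418 to 0.0199 in the other libraries. The transcripts of the 9 genes held 43% (C3ar1) to 59.5% (C1qa) G and C, with a median over all tested genes of 50.1%. Fold changes of the 9 genes are therefore given with and without VNS-TAC 1 and VNS-TAC 3. Triplets of values follow the order of libraries 1, 2 and 3 of a group. Heart muscle RNA was abundant in every library, the 9 cardiomyocyte markers summing to 47152 to 73786 FPKM in VNS-TAC and 57045 to 58554 FPKM in Ctrl-TAC.

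The classical pathway starts when C1q, built from chains encoded by C1qa, C1qb and C1qc, binds antibody or altered cell surfaces and its partner proteases C1r and C1s cleave C4 and C2. All pathways meet at C3, whose cleavage releases the signal peptide C3a and leaves C3b on the surface. Factor B, encoded by Cfb, is cut by factor D, encoded by Cfd and also called adipsin, to form the enzyme that amplifies this step in the alternative pathway. The liver makes most plasma C3 and C4, tissue macrophages are a main source of C1q, and adipocytes are the main source of adipsin. Serping1 encodes the C1 inhibitor, which blocks C1r and C1s, and C3ar1 encodes the receptor for C3a.

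Upstream sequences are shown for C3, the gene with the largest positive fold change of the 9, and for C1qb and C1qc, adjacent genes of the C1q cluster. RefSeq promoter windows (GRCm38.p6) were matched for 5 of the 9 genes, and the 250 bases before the start of the RefSeq promoter entry are given, 5′ to 3′ on the strand of the gene. All of these genes lie on the minus strand: C3 at chr17:57228137-57228386, C1qb at chr4:136886201-136886450 and C1qc at chr4:136892915-136893164. Capitals mark matches, on either strand, to a C/EBP motif (TTGCNNAA) in C3, to a PU.1 motif (GAGGAA) in C1qb and C1qc, and to the kappaB consensus in C1qc nearest its start.
C3: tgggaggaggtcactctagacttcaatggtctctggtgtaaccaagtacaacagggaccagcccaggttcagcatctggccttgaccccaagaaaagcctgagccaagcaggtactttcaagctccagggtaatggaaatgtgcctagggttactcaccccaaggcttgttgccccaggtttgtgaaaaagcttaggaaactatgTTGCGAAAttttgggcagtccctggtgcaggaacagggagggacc
C1qb: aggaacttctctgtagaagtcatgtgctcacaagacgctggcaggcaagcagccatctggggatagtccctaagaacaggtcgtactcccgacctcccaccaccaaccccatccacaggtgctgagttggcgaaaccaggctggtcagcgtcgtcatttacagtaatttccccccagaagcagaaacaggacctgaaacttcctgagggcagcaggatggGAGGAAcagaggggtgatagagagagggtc
C1qc: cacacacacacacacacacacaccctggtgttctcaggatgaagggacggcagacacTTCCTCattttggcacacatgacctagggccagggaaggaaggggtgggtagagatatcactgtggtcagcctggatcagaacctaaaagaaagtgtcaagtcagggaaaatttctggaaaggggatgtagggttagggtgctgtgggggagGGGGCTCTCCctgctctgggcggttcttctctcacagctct
The C/EBP motif, read by a family of acute-phase and adipocyte transcription factors, lay 45 to 38 bases before the start of C3. The PU.1 motif, read by a macrophage transcription factor, lay 30 to 25 bases before C1qb and 193 to 188 bases before C1qc, and the kappaB match 41 to 32 bases before C1qc. These distances count from the start of the promoter entry, which for C1qc lies inside the gene as RefSeq's gene record bounds it, so the end of its printed sequence is within that gene. Among 32851 windows of the same length, 9.56% held the C/EBP motif, 23.3% the PU.1 motif and 3.90% the kappaB consensus. The interferon-stimulated response element and a STAT element (TTCNNNGAA), found in 2.98% and 7.02% of the windows, had no match in the printed sequences, nor did TATAAA (12.4%). Of the matched genes not printed here, Cfd had no match to any of these motifs. C3ar1 had only TATAAA, 235 to 230 bases before the start of its promoter entry.

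**Figure D1:**
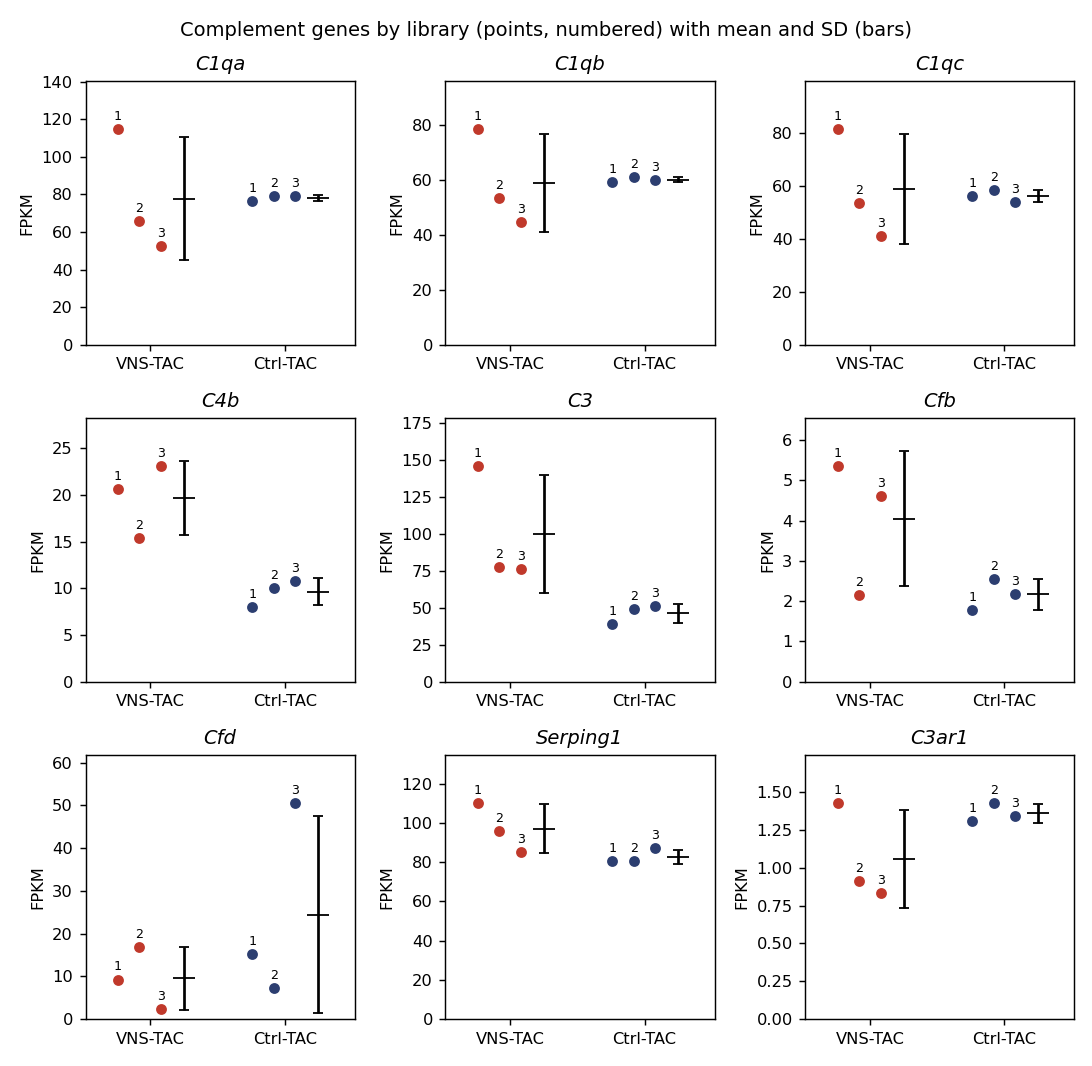
FPKM of the 9 complement genes (vertical axes, from 0) in the 3 VNS-TAC and 3 Ctrl-TAC libraries (numbered points), with the mean and SD of each group (bars). C3 and C4b lay higher in each VNS-TAC library than in any Ctrl-TAC library, the C1q chains spread widely in VNS-TAC, and Cfd spread widely in both groups.

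C3 and C4b were higher in VNS-TAC hearts, at 2.15 and 2.04 times their Ctrl-TAC means, whereas this ratio was 0.777 for C3ar1, 0.979 to 1.05 for the C1q chains and 1.17 for Serping1. None of the 9 genes passed the adjusted threshold of 0.05 in limma, a linear model fitted to log2(FPKM + 1) across all 11422 tested genes, and 0% of all tested genes did; 15.0% of them (1719) had an unadjusted p under 0.05. Without adjustment, 2 of the 9 had a p under 0.05, both higher, where 3.79% of all tested genes were higher and 11.3% lower at that level. The groups did not overlap in those 2 genes, with VNS-TAC above, which held for 8.01% of all tested genes, and 0 of the 9 lay wholly below, as 17.4% did. With VNS-TAC 1 left out, when separation of 2 libraries from 3 is easier, 4 of the 9 lay wholly below, against 26.9% of all tested genes. The median log2 fold change of the 9 genes was 0.01, and that of all tested genes -0.08. Of the tested genes below 0.05 without adjustment, 25.2% were higher; the share was 53.3% with size factors and 10.8% with FPKM sums made equal, while the median of all tested genes lay at 0.00 and -0.15.

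C3 (chromosome 17, 57203967 to 57228136), the component on which all pathways converge, stood at 146.14, 77.64 and 75.95 FPKM in VNS-TAC libraries, against 38.96, 49.27 and 51.02 FPKM in Ctrl-TAC libraries. Every VNS-TAC library was above every Ctrl-TAC library and VNS-TAC 1 was the highest. It averaged 99.9 ± 40.0 FPKM in VNS-TAC and 46.4 ± 6.52 FPKM in Ctrl-TAC (SD, n = 3 each). The log2 fold change was 1.03 ± 0.26 (SE), with a 95% interval of 0.42 to 1.64 and a limma adjusted p of 0.224. An exact two-sided permutation test over 20 assignments gave 0.1, the lowest p it can give with 3 libraries against 3. Without VNS-TAC 1 the log2 fold change was 0.72, without VNS-TAC 3 it was 1.19, and with the GC trend removed it was 1.02.

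C4b (chromosome 17, 34728139 to 34743902), which encodes complement component C4 of the classical and lectin pathways, stood at 20.61, 15.4 and 23.15 FPKM in VNS-TAC libraries, against 8.05, 10.06 and 10.84 FPKM in Ctrl-TAC libraries. All VNS-TAC values again lay above all Ctrl-TAC values, here with VNS-TAC 3 highest. Mean levels were 19.7 ± 3.95 FPKM in VNS-TAC and 9.65 ± 1.44 FPKM in Ctrl-TAC (SD, n = 3 each), the log2 fold change was 0.95 ± 0.18 (SE; 95% interval 0.52 to 1.38) and the limma adjusted p was 0.186. The exact permutation p was 0.1, again the lowest possible. Without VNS-TAC 1 or VNS-TAC 3 the log2 fold change was 0.91 or 0.83. C4b has a near-identical neighbour, C4a, listed at 0.03 to 0.09 FPKM, and how reads shared by such copies were counted is not given in the sources used here, so the C4b level is uncertain. Of all tested genes, 48 had a log2 fold change at least as high as that of C4b, with C4b and C3 counted. Counting both directions, 1.58% of all tested genes had one at least as large. When libraries were weighted by how closely they followed their group (array weights), C3 at 0.87 and C4b at 0.76 passed the threshold (limma adjusted p = 0.0166 and 0.0175), along with 1016 genes in all, in a fit that rested mainly on VNS-TAC 2 within its group. Over all alternatives the limma adjusted p ranged from 0.0166 to 0.702 for C3 and from 0.0175 to 0.674 for C4b.

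Cfb (chromosome 17, 34856374 to 34862514), which lies 112.5 kb from C4b in the same complement gene region, stood at 5.36, 2.16 and 4.62 FPKM in VNS-TAC libraries, against 1.77, 2.56 and 2.17 FPKM in Ctrl-TAC libraries. VNS-TAC 1 and 3 were above every Ctrl-TAC library, and VNS-TAC 2 lay among them. The log2 fold change was 0.62 ± 0.27 (SE; 95% interval -0.01 to 1.24; limma adjusted p = 0.337). It was 0.42 without VNS-TAC 1 and 0.51 without VNS-TAC 3. A transcript unit on the same strand, Gm20547, overlaps Cfb in GENCODE M21, so reads from the overlap could belong to either. Whether the annotation used for counting held it is not stated, and its part in the Cfb values was not tested.

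Of the 11 neutrophil markers listed, 6 were tested and 0 passed the adjusted threshold in limma. All 6 lay wholly above Ctrl-TAC, as did 8.01% of all tested genes. The expression filter, a mean over all 6 libraries, admits genes through high VNS-TAC values alone. This count is therefore partly fixed by the filter and cannot be read against that share. The 11 summed to 58.1 to 185 FPKM in VNS-TAC and 5.85 to 9.60 FPKM in Ctrl-TAC. The 8 mesothelial markers summed to 16.3, 5.12 and 9.29 FPKM in VNS-TAC libraries and to 7.44, 9.47 and 13.5 FPKM in Ctrl-TAC libraries, so the groups overlapped. Of 7 hepatocyte markers listed, Alb, Fga and Fgb were not analysed here, and the other 4 summed to 0.94 to 1.58 FPKM in VNS-TAC and 0.24 to 0.46 FPKM in Ctrl-TAC. Of the interferon response genes, 13 of 14 tested had a negative log2 fold change, with a median of -0.35 against -0.08 for all tested genes. Of these 14, 5 lay wholly below Ctrl-TAC, as did 17.4% of all tested genes. The part of these gene groups in the C3, C4b and Cfb values was not tested.

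The C1q chains had group means that nearly coincided but a much wider spread in VNS-TAC. C1qa stood at 115.09, 65.79 and 52.56 FPKM in VNS-TAC libraries, against 76.51, 79.38 and 79.04 FPKM in Ctrl-TAC libraries. C1qb had 78.84, 53.34 and 44.62 FPKM in VNS-TAC libraries, against 59.31, 61.10 and 60.12 FPKM in Ctrl-TAC libraries. C1qc had 81.81, 53.79 and 41.27 FPKM in VNS-TAC libraries, against 56.19, 58.64 and 54.09 FPKM in Ctrl-TAC libraries. In each chain VNS-TAC 1 lay above all Ctrl-TAC libraries and VNS-TAC 2 and 3 lay below all of them. The coefficients of variation of the 3 chains were 42.3%, 30.2% and 35.2% over VNS-TAC libraries and 2.00%, 1.49% and 4.04% over Ctrl-TAC libraries, with medians over all tested genes of 20.3% in VNS-TAC and 8.88% in Ctrl-TAC.

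The log2 fold changes were -0.09 ± 0.26 for C1qa, -0.07 ± 0.20 for C1qb and 0.01 ± 0.23 for C1qc (SE). Their 95% intervals, -0.71 to 0.53, -0.54 to 0.40 and -0.53 to 0.55, extend to both sides of 0. The sign depended on the VNS-TAC libraries used: without VNS-TAC 1 the values were -0.41, -0.30 and -0.25, and without VNS-TAC 3 they were 0.15, 0.11 and 0.23. The limma adjusted p was 0.881 to 0.987 with all libraries, and at least 0.16 in every alternative run.

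The 3 genes lie side by side within 18.7 kb of chromosome 4, with C1qa at 136895916 to 136898844, C1qc at 136889801 to 136892936 and C1qb at 136880126 to 136886200. Their ratios, which do not depend on the scaling of a library, were steady in Ctrl-TAC, with C1qa at 1.29 to 1.31 times C1qb. They ranged more in VNS-TAC, at 1.46, 1.23 and 1.18 times C1qb in VNS-TAC libraries. C1qc was at 0.925 to 1.04 times C1qb in VNS-TAC and 0.9 to 0.96 times in Ctrl-TAC.

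Macrophage markers, taken as a sum, had the same order among the VNS-TAC libraries. Single markers differed: over the 6 libraries, the Pearson correlation of log2(FPKM + 1) with C1qa was 0.95 for Pf4, 0.83 for Csf1r and -0.25 for Mrc1. The 23 listed markers summed to 339, 234 and 207 FPKM in VNS-TAC libraries, and to 305, 339 and 300 FPKM in Ctrl-TAC libraries. Of the 22 tested, 20 had a negative log2 fold change, with a median of -0.30, and 2 lay wholly below Ctrl-TAC, a share under the 17.4% of all tested genes. The mean log2 level of the C1q chains less that of the 22 markers was 3.46, 3.12 and 2.96 in VNS-TAC libraries, and 2.91 to 3.0 in Ctrl-TAC libraries. C1q thus stood highest over the markers in VNS-TAC 1, the library whose values followed GC content most strongly (Spearman 0.549). Ctrl-TAC 1 and 2 had opposite trends (-0.316 and -0.418). With the GC trend removed, the log2 fold changes between the groups were -0.13 for C1qa, -0.10 for C1qb and -0.02 for C1qc. The part of macrophages in the C1q values was not tested, nor was that of GC content in single libraries. Fewer cells of a type cannot be told apart from less RNA per cell in these bulk libraries.

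**Figure D2:**
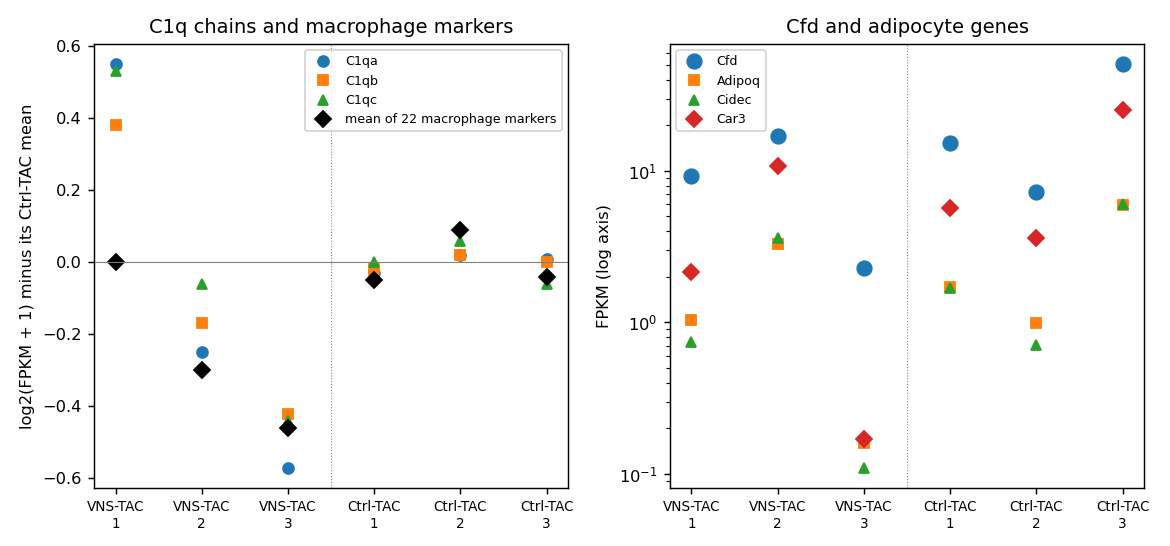
Left, log2(FPKM + 1) of the 3 C1q chains and the mean of 22 macrophage markers, each less its Ctrl-TAC mean, by library. Right, FPKM of Cfd and of the adipocyte genes Adipoq, Cidec and Car3 by library on a log axis: Ctrl-TAC 3 is highest and VNS-TAC 3 lowest in all 4 genes.

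C3ar1 (chromosome 6, 122847140 to 122856157), the C3a receptor of myeloid cells, was the least abundant of the 9. It stood at 1.43, 0.91 and 0.83 FPKM in VNS-TAC libraries, against 1.31, 1.43 and 1.34 FPKM in Ctrl-TAC libraries, or roughly 54 to 97 fragments in VNS-TAC and 82 to 85 in Ctrl-TAC. VNS-TAC 2 and 3 were below Ctrl-TAC and VNS-TAC 1 was level with its highest value. The log2 fold change was -0.21 ± 0.15 (SE; 95% interval -0.56 to 0.14; limma adjusted p = 0.515). It was -0.34 without VNS-TAC 1, -0.13 without VNS-TAC 3 and 0.02 with the GC trend removed. C3 RNA was 102, 85.3 and 91.5 times C3ar1 RNA in VNS-TAC libraries, and 29.7, 34.5 and 38.1 times in Ctrl-TAC.

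Serping1 (chromosome 2, 84765360 to 84775444) was the most abundant of the 9 in Ctrl-TAC. It stood at 110.36, 96.18 and 85.15 FPKM in VNS-TAC libraries, against 80.89, 80.56 and 87.08 FPKM in Ctrl-TAC libraries. VNS-TAC 1 and 2 were above all Ctrl-TAC libraries and VNS-TAC 3 was below Ctrl-TAC 3. The log2 fold change was 0.22 ± 0.13 (SE; 95% interval -0.09 to 0.53; limma adjusted p = 0.437), 0.13 without VNS-TAC 1 and 0.31 without VNS-TAC 3.

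Cfd (chromosome 10, 79890853 to 79892655) varied more between libraries of a group than between the groups. It stood at 9.23, 16.95 and 2.30 FPKM in VNS-TAC libraries, against 15.29, 7.30 and 50.62 FPKM in Ctrl-TAC libraries. The highest value was in Ctrl-TAC 3, the lowest in VNS-TAC 3, and the groups overlapped. The log2 fold change of -1.18 ± 0.78 (SE; 95% interval -3.01 to 0.66; limma adjusted p = 0.482) was -1.31 without VNS-TAC 1, -0.50 without VNS-TAC 3, -0.46 without Ctrl-TAC 3 and -1.78 without Ctrl-TAC 2. The adipocyte hormone gene Adipoq stood at 1.04, 3.28 and 0.16 FPKM in VNS-TAC libraries and at 1.72, 0.99 and 5.92 FPKM in Ctrl-TAC libraries. Car3, a carbonic anhydrase abundant in fat, had 2.14, 10.83 and 0.17 FPKM in VNS-TAC libraries and 5.70, 3.58 and 25.05 FPKM in Ctrl-TAC libraries. Cidec, a lipid droplet gene, ranged from 0.11 to 3.58 FPKM in VNS-TAC and from 0.71 to 6.04 FPKM in Ctrl-TAC. In Cfd and these genes, which were picked from the adipocyte list after their values were seen, Ctrl-TAC 3 was highest, VNS-TAC 2 next and VNS-TAC 3 lowest. The whole list of 10 adipocyte markers, taken as a sum, did not follow that order. It summed to 79.0, 142 and 174 FPKM in VNS-TAC libraries and to 79.6, 86.1 and 125 FPKM in Ctrl-TAC libraries, so that VNS-TAC 3, lowest in Cfd, was highest in the sum. None of the 10 was at 0 in all libraries. The part of fat tissue in the Cfd values was not tested.

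The order of the levels differed between the groups mainly through C3. In Ctrl-TAC the order by mean FPKM was Serping1, C1qa, C1qb, C1qc, C3, Cfd, C4b, Cfb and C3ar1. Neighbours in it did not overlap, except that Cfd, which ranged from 7.30 to 50.62 FPKM, overlapped both C3 and C4b. C3 ranked place 5 of the 9 in each Ctrl-TAC library. In VNS-TAC it ranked place 1 in VNS-TAC 1 and place 2, after Serping1, in VNS-TAC 2 and 3. There C3 overlapped Serping1 and each C1q chain, while C1qb and C1qc lay wholly below Serping1. C3 was at 0.53, 0.449 and 0.549 times the summed C1q chains in VNS-TAC libraries, and at 0.203, 0.247 and 0.264 times in Ctrl-TAC libraries. This ratio was higher in every VNS-TAC library than in any Ctrl-TAC library, whichever side of Ctrl-TAC the C1q chains themselves lay on.

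**Figure D3:**
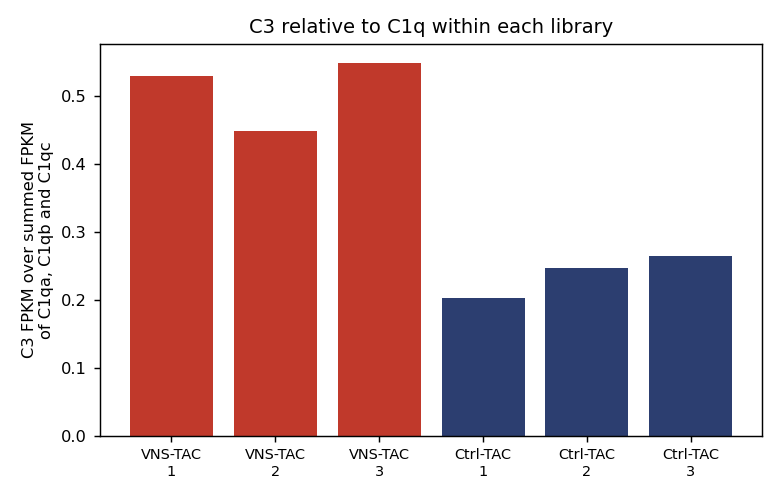
C3 FPKM divided by the summed FPKM of C1qa, C1qb and C1qc (vertical axis, from 0) in each library. The VNS-TAC bars reach 0.449 to 0.549 and the Ctrl-TAC bars 0.203 to 0.264.

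Of 50 other complement genes listed by role, 45 were in the table and 22 passed the expression filter. None passed the adjusted threshold in limma, 1 was higher and 4 lower at an unadjusted p under 0.05, and 1 lay wholly above and 5 wholly below Ctrl-TAC, against the same 8.01% and 17.4% of all tested genes. Without VNS-TAC 1, 9 lay wholly below and 1 wholly above, against 26.9% and 14.9% of all tested genes. Their median log2 fold change was -0.14.

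In the C1 and lectin list, 6 of 14 genes in the table were tested. The proteases of the C1 complex, C1ra and C1s1, had log2 fold changes of 0.04 ± 0.18 and -0.25 ± 0.13 (SE), and both overlapped. Colec12, a scavenger receptor with a collectin domain, stood at 4.21, 6.35 and 4.84 FPKM in VNS-TAC libraries, against 9.45, 10.14 and 9.01 FPKM in Ctrl-TAC, all VNS-TAC values lying below (log2 fold change -0.79 ± 0.16, limma adjusted p = 0.19). Fcna, a ficolin of macrophages, stood at 3.76, 2.97 and 2.72 FPKM in VNS-TAC libraries, against 1.66, 2.02 and 2.26 FPKM in Ctrl-TAC, all VNS-TAC values lying above (0.47 ± 0.15, adjusted p = 0.257). Colec11, a soluble collectin, lay wholly below at 11.39, 10.73 and 5.67 FPKM, against 13.29, 12.82 and 12.12 FPKM in Ctrl-TAC (-0.47 ± 0.24, adjusted p = 0.378), and its log2 fold change was -0.19 without VNS-TAC 3.

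Of the terminal and alternative pathway genes, 3 of 6 were tested. C7, a component of the membrane attack complex, stood at 2.54, 2.65 and 4.2 FPKM in VNS-TAC libraries, against 5.26, 7.32 and 8.81 FPKM in Ctrl-TAC. These groups did not overlap (log2 fold change -0.98 ± 0.22, limma adjusted p = 0.203), so C7 and C3 differed in opposite directions. None of the 12 fibroblast markers passed the adjusted threshold in limma, and 7 lay wholly below Ctrl-TAC, as did 17.4% of all tested genes. They had sums of 461 to 494 FPKM in VNS-TAC and 648 to 721 FPKM in Ctrl-TAC. Their part in the C7 values was not tested. Cfp, the properdin gene of myeloid cells, had a log2 fold change of -0.31 ± 0.31 (SE), which was 0.02 without VNS-TAC 3 and -0.65 without VNS-TAC 1. C8g, a chain of the membrane attack complex, had one of -0.09 ± 0.13, which was -0.01 without Ctrl-TAC 2 and -0.16 without Ctrl-TAC 3.

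Membrane regulators protect host cells from complement. Cd55, which speeds the decay of the C3-cleaving enzymes, stood at 2.64, 3.41 and 2.53 FPKM in VNS-TAC libraries, against 4.48, 4.37 and 3.87 FPKM in Ctrl-TAC, with no overlap (log2 fold change -0.45 ± 0.14, limma adjusted p = 0.255). Cd59a, which blocks the membrane attack complex, had one of -0.14 ± 0.11, and Vsig4, a macrophage receptor for C3b, one of 0.35 ± 0.22, both with overlap. The value of Vsig4 was 0.17 without Ctrl-TAC 3 and 0.56 without Ctrl-TAC 2. Among receptors, Cd93, a surface glycoprotein of endothelial cells once described as a C1q receptor, lay wholly below at 17.48, 13.47 and 10.99 FPKM, against 23.04, 26.23 and 19.19 FPKM in Ctrl-TAC (-0.68 ± 0.19, adjusted p = 0.244). The 8 endothelial markers summed to 309 to 355 FPKM in VNS-TAC and 362 to 406 FPKM in Ctrl-TAC, and their part in the Cd93 values was not tested. The C5a receptor gene C5ar1 and the integrin gene Itgb2 had log2 fold changes of -0.29 ± 0.23 and -0.19 ± 0.16. Without VNS-TAC 1 these were -0.56 and -0.32, C5ar1 was at -0.12 without VNS-TAC 3, and Itgb2 was at -0.10 without VNS-TAC 2.

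**Figure D4:**
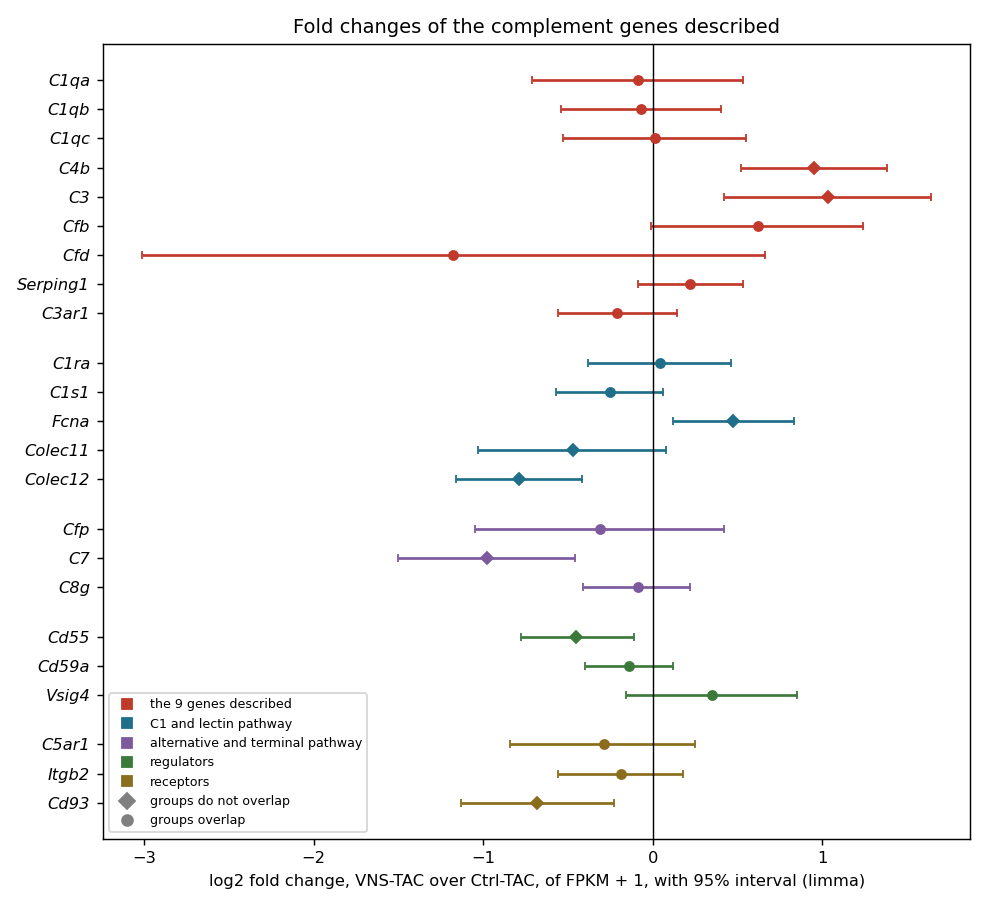
Log2 fold change of VNS-TAC over Ctrl-TAC on the log2(FPKM + 1) scale (horizontal axis) with 95% intervals. Shown are the 9 genes and, by role, the other tested complement genes described here except Clu. Diamonds mark genes whose groups did not overlap: C3, C4b and Fcna lie to the right, and Colec11, Colec12, C7, Cd55 and Cd93 to the left.

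Genes were also ranked by the likeness of their log2(FPKM + 1) profile to those of the complement genes over the 6 libraries, as a description. The closest to the mean C1q profile were Elavl1, Wdr1 and Fbxl22 (Pearson 0.997, 0.996 and 0.992), and 136 genes reached 0.95. For C3 they were Cox10, Cdip1 and Mul1 (0.997, 0.994 and 0.990), and for C4b Pgap3, Fbxo44 and Ajuba (each 0.997). Serping1 was closest to Tbrg4, Epn1 and Slc25a3 (0.993, 0.991 and 0.988). Cfd was closest to Tln2, Aatk and Adipoq (0.996, 0.976 and 0.975), and 15 genes reached 0.95 there. The number reaching 0.95 was 46 for C3, 63 for C4b and 59 for Serping1. All these profiles share the same 6 libraries, including the ones that stood apart.

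**Figure D5:**
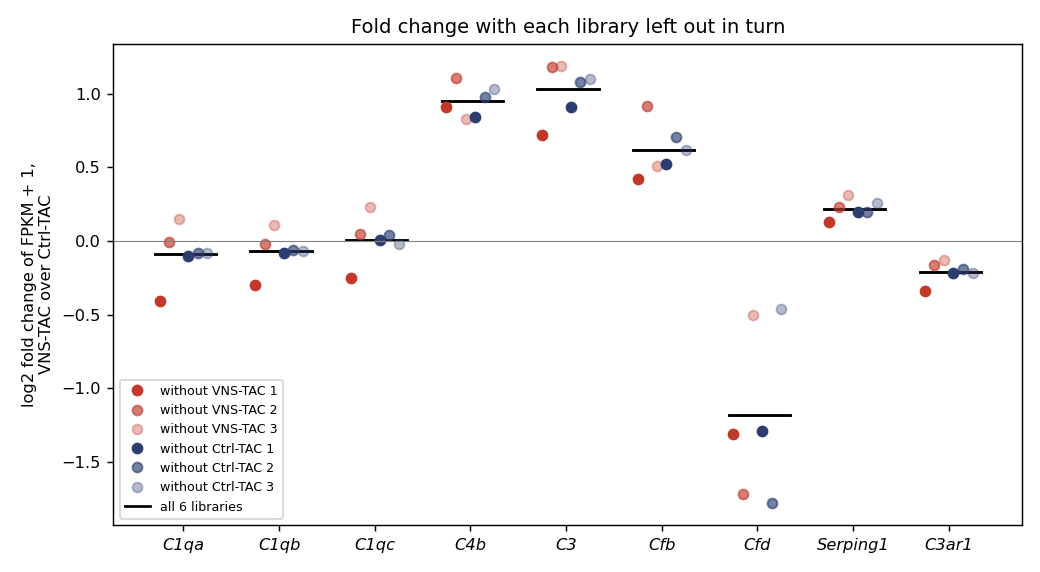
Log2 fold change of VNS-TAC over Ctrl-TAC on the log2(FPKM + 1) scale for the 9 genes with all 6 libraries (lines) and with each library left out in turn (points). C3 stays between 0.72 and 1.19 and C4b between 0.83 and 1.11, the C1q chains lie on both sides of 0, and Cfd ranges from -1.78 to -0.46.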

How the data were processed

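The deposited values are FPKM for 18019 NCBI gene IDs in 6 libraries, rounded by the authors to 2 decimals, per the file headers. The submitters' processing notes list HISAT, featureCounts (1.5.0-p3), DESeq (1.8.3) and GRCm38, with no roles. The annotation, strand setting and treatment of multi-mapping reads are not stated in these sources. Groups came from sample titles, since the treatment tag reads VNS for all samples. Ctrl-TAC columns were matched by library name. VNS-TAC columns carry other numbers than the labels, so each was tied to its group but not to one sample. Whether libraries are separate animals is not labelled, so p-values measure the spread between libraries, which may be technical.

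Symbols came from RefSeq (GRCm38.p6) for 17890 IDs and GENCODE M21 for 14. The 11422 genes averaging 1 FPKM or more were compared as log2(FPKM + 1), which understates changes of low genes. The limma package (3.58.1, R 4.3.3) fitted an intensity trend with 4 residual degrees of freedom, and p-values were adjusted by the Benjamini-Hochberg method across all tested genes. The procedure was tested on simulated data with independent noise and equal variance in both groups, which the wider spread of the VNS-TAC libraries does not match. Depth, estimated from whole-fragment steps of low values, entered no test. The genes described, the other complement genes and the marker lists were chosen with earlier results of these data known. Of each list of other complement genes the 3 with the smallest unadjusted p are named, and C1ra and C1s1 were added after their values were seen, as were Adipoq, Cidec and Car3. Profiles were compared by Pearson correlation, naming the 3 closest genes. Python 3.11.15, pandas 2.3.3, numpy 2.4.6 and matplotlib 3.10.9 made tables and figures.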

Additional observations from a re-analysis of the deposited data

How the results depend on the processing

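The number of genes past the adjusted threshold, 0 with all libraries, was 1 when genes had to average 5 FPKM, 2 with size factors, with quantile normalization or with the GC trend removed, 0 to 3 with a library left out, and 1016 with array weights, where 2 of the 9 complement genes (C3 at 0.87 and C4b at 0.76) and 4 of the others (Fcna at 0.48, Colec12 at -0.59, C7 at -0.99 and Cd93 at -0.74) passed. The 1719 genes with an unadjusted p under 0.05 became 3441 with array weights, and 835 and 766 without Ctrl-TAC 1 and 2. Array weights were 0.246 and 0.247 for VNS-TAC 1 and 3 and 2.82 for VNS-TAC 2, so that fit rested mainly on VNS-TAC 2. C3, C4b, Cfb and Serping1 kept a positive and Cfd a negative log2 fold change in every alternative run. Cfb was at 0.17 and Cfd at -0.09 with array weights. Signs turned for C1qa (0.01) and C1qb (0.03) with size factors. With a library left out, C1qa ranged from -0.41 to 0.15, C1qb from -0.30 to 0.11, C1qc from -0.25 to 0.23 and Cfp from -0.65 to 0.02, in each case lowest without VNS-TAC 1 and highest without VNS-TAC 3. C1qc was at -0.07 with every library given an equal FPKM sum, -0.06 with array weights, -0.02 with the GC trend removed, -0.0012 with the length trend removed and -0.02 without Ctrl-TAC 3. C3ar1 (0.02) and Cd59a (0.05) turned with the GC trend removed and C8g (0.06) with quantile normalization. The cause was not tested. Cfb and C3ar1 had no value with the filter at 5 FPKM. No paired analysis was possible because columns of VNS-TAC cannot be tied to single labelled samples, so no replicate block was fitted.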

Other observations

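Further complement genes were chosen after their values were seen. Clu, which encodes clusterin, a chaperone that inhibits the membrane attack complex, was the most abundant complement gene listed, at 623.01, 728.53 and 1288.8 FPKM in VNS-TAC and 622.98, 522.14 and 884.05 FPKM in Ctrl-TAC. C6, a terminal component under the expression filter, had 0.59, 0.30 and 0.55 FPKM in VNS-TAC libraries and 0.26, 0.05 and 0.07 FPKM in Ctrl-TAC, where its partner C7 was lower in VNS-TAC.

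Other marker lists are given as sums over their genes. The 5 erythroid markers summed to 1503, 310 and 25.1 FPKM in VNS-TAC libraries, and to 183 to 578 FPKM in Ctrl-TAC, the same order among VNS-TAC libraries as the C1q chains. The 9 T and B cell markers summed to 1.85 to 2.49 FPKM in VNS-TAC and 2.07 to 2.59 FPKM in Ctrl-TAC.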
